A study of Mus musculus with 18 samples.

Results

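The mouse Cyp2 genes encode the second family of cytochrome P450 enzymes. All rows of the raw count table whose gene name begins with Cyp2 and a subfamily letter were taken, and names ending in -ps were left out. This gave 49 members out of 32285 rows. They were followed in liver RNA of 18 mice, with 6 mice in each of 3 groups. The label on every library gave the genotype as wild-type and the strain as B6D2F1. Space pups were sired through germline stem (GS) cells, a culture of spermatogonial stem cells, after storage in a freezer of the International Space Station for 6 months. For Ground pups the GS cells had been stored on Earth. The GS cells had been derived from testes of DBA/2-background pups that carried an EGFP transgene under an actin promoter, and after thawing they were put into the seminiferous tubules of infertile W mice, which were then housed with C57BL/6 females. The pups' livers were taken at 10 weeks of age. BDF1 livers were wild-type controls of no stated age. No label gave sex, litter, father or batch, and pups of one group may share a recipient father, so that p-values here measure the spread between these livers only.

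Cytochrome P450 enzymes are heme proteins of the endoplasmic reticulum that add oxygen to their substrates with electrons passed on by the reductase Por. Members of the Cyp2 family act on drugs, toxicants, steroids, bile acids, retinoids and arachidonic acid, and in rodents the family has expanded into tandem clusters of close paralogs. In mouse liver many Cyp2 genes are known to be made at different levels in males and females, under the pattern of growth hormone release and the transcription factor Stat5b. Others respond to the nuclear receptors CAR (Nr1i3) and PXR (Nr1i2), and some are confined to hepatocytes near the central or the portal vein.

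Libraries held 15407450 to 20562351 counts. Values are given as CPM, a gene's counts per 1000000 counts of the library, whose size was corrected by edgeR's trimmed mean of M values. CPM is not divided by gene length. A level per kilobase of exon is named as such. After a mean, ± is the SD with n = 3. After a log2 difference it is an approximate standard error, the size of that difference over the square root of the edgeR test's F value. Replicates 1 to 3 of every group held 1822 to 2482 counts of 4 Y-linked genes and 0 to 187 Xist counts. Replicates 4 to 6 held 12218 to 21557 Xist counts and 0 to 26 Y-linked counts. The paper states that F1 males and females of each group were analyzed, and does not say which libraries were which. Because of these counts, groups were compared within replicates 1 to 3 and within replicates 4 to 6. Some libraries stood apart. Among replicates 1 to 3, Space replicate 1 and Ground replicates 1 and 2 held 30, 145 and 187 Xist counts, against 0 to 4 in the other 6. Among replicates 4 to 6, the cortisol-binding globulin gene Serpina6 took 3.43% of the counts of Space replicate 4, 3.41% of Ground replicate 5 and 2.18% of Ground replicate 6, against 0.0664% to 0.107% in the other 6. Space replicate 6 held 801 counts and BDF1 replicate 3 held 91 counts of 5 sperm genes, against 0 to 12 elsewhere. All 10 hepatocyte markers had counts in every library, while the summed level of 5 kidney markers stayed at or below 0.328 CPM and that of 5 lung markers at or below 3.48 CPM.

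Of the 49 members, 36 were abundant enough to be tested among 13356 genes. The other 13 were Cyp2ab1, Cyp2b19, Cyp2b23, Cyp2c65, Cyp2c66, Cyp2d34, Cyp2t4, Cyp2w1 and the 5 Cyp2j genes Cyp2j7, Cyp2j8, Cyp2j11, Cyp2j12 and Cyp2j13. Among these, Cyp2j7, Cyp2j12, Cyp2j13, Cyp2t4 and Cyp2w1 had 0 counts in all 18 libraries, and no library held more than 27 counts of any other, or 1.26 CPM. A mean of at least 10 CPM was reached by 31 members. By mean level per kilobase of exon, the order was led by Cyp2e1 (1983 CPM per kb), the pericentral enzyme that oxidizes ethanol and acetone. Next came Cyp2f2 (827 CPM per kb), a periportal enzyme that oxidizes naphthalene, and Cyp2c29 (826 CPM per kb), an arachidonic acid epoxygenase. They were followed by Cyp2d26 (532 CPM per kb) and by Cyp2c70 (491 CPM per kb), which makes muricholic bile acids in mice. Cyp2a4, a testosterone hydroxylase, followed at 416 CPM per kb and Cyp2d10 at 400.5 CPM per kb. At the bottom of the tested members stood Cyp2s1 (0.123 CPM per kb), an enzyme known mainly from tissues other than liver. Together the family took 1.86% ± 0.119 of counts in BDF1 replicates 1 to 3 and 2.28% ± 0.159 in BDF1 replicates 4 to 6.

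Most members lie in 4 tandem clusters on the GRCm38 (mm10) build. Chromosome 19 holds 14 Cyp2c genes over 1180 kb, with Cyp2c23 further along the same chromosome. Chromosome 7 holds 13 genes of the 2a, 2b, 2f, 2g, 2s and 2t subfamilies over 1356 kb, chromosome 15 holds 8 Cyp2d genes and chromosome 4 holds 8 Cyp2j genes. Close paralogs share exon sequence, and how reads that fit several genes were counted is not given in the sources used here. The share of 75-base exon windows also found in another gene was largest for Cyp2c40 (45.9%), Cyp2c69 (42.6%), Cyp2c67 (36%) and Cyp2c68 (28.5%). It was 22.3% for Cyp2a5 and 22.1% for Cyp2a4, lay above 10% in 15 members and was 0 in 17. Levels of these paralogs are therefore uncertain to the extent that reads were split or dropped. Exons of Cyp2d9 overlap Gm46501 and Gm27622 and those of Cyp2c29 overlap Cyp2c53-ps on the same strand. Cyp2d10 (with Gm27331), Cyp2d11 (with Mir7684) and Cyp2d12 (with Gm27924) also overlap another gene on the same strand. Whether counting used the strand is also not given. Cyp2a4 (with Gm42375), Cyp2c55 (with Gm23800), Cyp2f2 (with Gm15883), Cyp2s1 (with Gm26707), Cyp2t4 (with Egln2) and Cyp2u1 (with 4930534D22Rik) overlap another gene on the opposite strand.

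The bases just before the start site are printed for 4 neighbouring Cyp2c genes and a Cyp2a pair, because these near copies had unlike levels in the 2 sets of replicates described next. Each sequence is the 250 bases before the RefSeq start on GRCm38.p6, read 5′ to 3′ on the gene's own strand. Capitals mark matches, on either strand, to the letters TATAAA (bound by TBP), TTCNNNGAA (bound by STAT5), CAAAGTCCA (bound by HNF4A) or TTNNGCAA (bound by C/EBP). The match at the end of the Cyp2c40 sequence runs past the start and is shown only up to it. Cyp2c40 and Cyp2c69 also hold TATAAA, at bases 291 and 261 of their windows. These matches lie past the start and are not printed.
Cyp2c67 (chr19:39649043-39649292, minus strand): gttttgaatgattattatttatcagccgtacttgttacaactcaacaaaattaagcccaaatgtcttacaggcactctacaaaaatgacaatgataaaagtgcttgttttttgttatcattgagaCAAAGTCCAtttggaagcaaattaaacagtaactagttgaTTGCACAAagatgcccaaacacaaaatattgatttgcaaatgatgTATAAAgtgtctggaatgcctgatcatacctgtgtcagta
Cyp2c68 (chr19:39741102-39741351, minus strand): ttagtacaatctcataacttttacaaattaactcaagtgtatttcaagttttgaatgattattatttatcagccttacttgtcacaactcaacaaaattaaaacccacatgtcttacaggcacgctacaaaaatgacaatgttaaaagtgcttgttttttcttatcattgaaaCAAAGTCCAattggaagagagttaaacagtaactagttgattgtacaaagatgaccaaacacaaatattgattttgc
Cyp2c40 (chr19:39812815-39813064, minus strand): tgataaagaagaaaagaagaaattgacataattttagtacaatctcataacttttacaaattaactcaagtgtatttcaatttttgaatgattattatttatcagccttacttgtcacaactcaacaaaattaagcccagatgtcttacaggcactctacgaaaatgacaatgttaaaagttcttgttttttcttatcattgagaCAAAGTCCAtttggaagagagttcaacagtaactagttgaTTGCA
Cyp2c69 (chr19:39886770-39887019, minus strand): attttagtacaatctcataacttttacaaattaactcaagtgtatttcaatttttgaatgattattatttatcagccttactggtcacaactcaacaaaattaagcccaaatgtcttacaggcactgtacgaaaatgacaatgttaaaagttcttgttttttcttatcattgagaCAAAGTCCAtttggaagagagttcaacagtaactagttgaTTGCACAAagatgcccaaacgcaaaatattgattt
Cyp2a4 (chr7:26306942-26307191, plus strand): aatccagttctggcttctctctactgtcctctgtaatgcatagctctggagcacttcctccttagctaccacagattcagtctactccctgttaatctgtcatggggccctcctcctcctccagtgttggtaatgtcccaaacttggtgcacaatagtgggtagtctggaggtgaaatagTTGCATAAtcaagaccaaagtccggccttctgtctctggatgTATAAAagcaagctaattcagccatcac
Cyp2a5 (chr7:26835089-26835338, plus strand): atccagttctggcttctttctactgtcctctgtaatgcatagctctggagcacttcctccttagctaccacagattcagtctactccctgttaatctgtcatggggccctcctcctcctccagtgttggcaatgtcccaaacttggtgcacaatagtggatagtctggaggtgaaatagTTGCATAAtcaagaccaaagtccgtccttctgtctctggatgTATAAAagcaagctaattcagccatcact

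Over the aligned part of the 300-base RefSeq windows (250 bases before to 50 after the start), Cyp2c40 and Cyp2c69 were 98.9% identical, Cyp2c67 and Cyp2c68 were 91.6% identical, and Cyp2a4 and Cyp2a5 were 98.3% identical. Cyp2b9 and Cyp2b13, which are not printed, were 99.3% identical. RefSeq windows were matched for 41 of the 49 members. Those of Cyp2c29 and Cyp2d9 lie 17680 and 18940 bases from the annotated start of the gene, and each holds TATAAA and no other of these motifs. CAAAGTCCA was in 6 of the 41 (Cyp2c40, Cyp2c65, Cyp2c67, Cyp2c68, Cyp2c69 and Cyp2c70), against 0.475% of all 32851 promoter windows. TATAAA was in 21 (13.6% of all), TTCNNNGAA in 2 (8.30% of all) and TTNNGCAA in 13 (10.8% of all). A match is a run of letters and no measure of binding.

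The comparison of replicates 4 to 6 with replicates 1 to 3 in each group served to show how each member's level ran across the libraries before the groups were compared. In BDF1 livers, 12 members were higher and 4 lower in replicates 4 to 6 (edgeR quasi-likelihood test, adjusted p under 0.05), 16 of 36, where 14.6% of all genes tested passed (7.29% higher and 7.33% lower). In Space pups 17 were higher and 6 lower (all genes: 21.9%, with 11.6% higher and 10.4% lower), and in Ground pups 14 were higher and 8 lower (all genes: 18.3%, with 9.59% higher and 8.71% lower). The same 11 members were higher in replicates 4 to 6 in all 3 groups. These were Cyp2a4, Cyp2a5, Cyp2a22, Cyp2b9, Cyp2b13, Cyp2c38, Cyp2c39, Cyp2c40, Cyp2c68, Cyp2c69 and Cyp2g1. Cyp2d9, Cyp2f2 and Cyp2u1 were lower in all 3 groups, and Cyp2d40 passed the test in all 3 groups with unlike directions. Cyp2d12 was higher in Space and lower in Ground. In all, 25 members passed in at least 1 group, and 11 passed in none, including Cyp2e1, Cyp2c29, Cyp2c50 and Cyp2c70. Scaled to total counts, the split became 11 higher and 3 lower in BDF1, 12 higher and 8 lower in Space and 12 higher and 12 lower in Ground. Of the 9 pericentral markers, 5 were higher and 1 lower in replicates 4 to 6 of BDF1, 6 and 0 in Space, and 4 and 0 in Ground. Of the 10 periportal markers these were 3 and 0, 1 and 2, and 1 and 2. For the 10 hepatocyte markers they were 0 and 2, 1 and 1, and 3 and 0. Of the 8 Kupffer cell markers, 3 were higher in Space and 0 passed in BDF1 or Ground. The part of these markers was not tested. In bulk liver, fewer cells that make an RNA and less of it per cell cannot be told apart.

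Cyp2a4 and its near copy Cyp2a5, a coumarin hydroxylase, were both higher in replicates 4 to 6, by unlike ratios. Cyp2a4 stood at 0.141, 0.165 and 0.783 CPM in BDF1 replicates 1 to 3 and at 428, 1008 and 789 CPM in replicates 4 to 6. In Space pups it went from 4.18, 0.126 and 0.699 to 2015, 1678 and 1859 CPM, and in Ground pups from 3.95, 8.91 and 0.729 to 1985, 1446 and 1779 CPM. No library of one set came near the other. The ratio of means was 2044 in BDF1, 1110 in Space and 383 in Ground, over summed counts in replicates 1 to 3 of 21, 86 and 264. Cyp2a5, which was added after its values were seen, ran from 197, 114 and 116 to 807, 997 and 867 CPM in BDF1, with ratios of 6.25, 7.16 and 4.25 in the same order. The sets did not overlap for Cyp2a5 either, but its level in replicates 1 to 3 was well above that of Cyp2a4.

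Cyp2b9 and Cyp2b13, P450s known from female mouse liver, were also near 0 in BDF1 replicates 1 to 3. Cyp2b9 stood at 0.0468, 0.604 and 0.313 CPM in BDF1 replicates 1 to 3 and 590.4, 546 and 515 CPM in replicates 4 to 6 (log2 difference 10.77 ± 1.05, edgeR adjusted p = 3.4e-06). Cyp2b13 stood at 0.0468, 0.220 and 0 CPM in the first set and 233, 170.3 and 226 CPM in the other (log2 difference 11.15 ± 0.83, edgeR adjusted p = 1.8e-07). They had 18 and 5 counts over the 3 libraries of the first set, so that the size of their log2 differences rests on few counts. Cyp2a22 was higher by a log2 difference of 5.12 ± 0.30 (edgeR adjusted p = 1.3e-08) in BDF1, 4.91 ± 0.28 in Space and 4.99 ± 0.28 in Ground. Cyp2g1, an enzyme of the olfactory mucosa, was low in all libraries, at 0.0975, 0.580 and 0 CPM in Ground replicates 1 to 3 and 11.3, 26.4 and 20.5 CPM in Ground replicates 4 to 6 (log2 difference 6.40 ± 0.60, edgeR adjusted p = 1.7e-06).

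**Figure D1:**
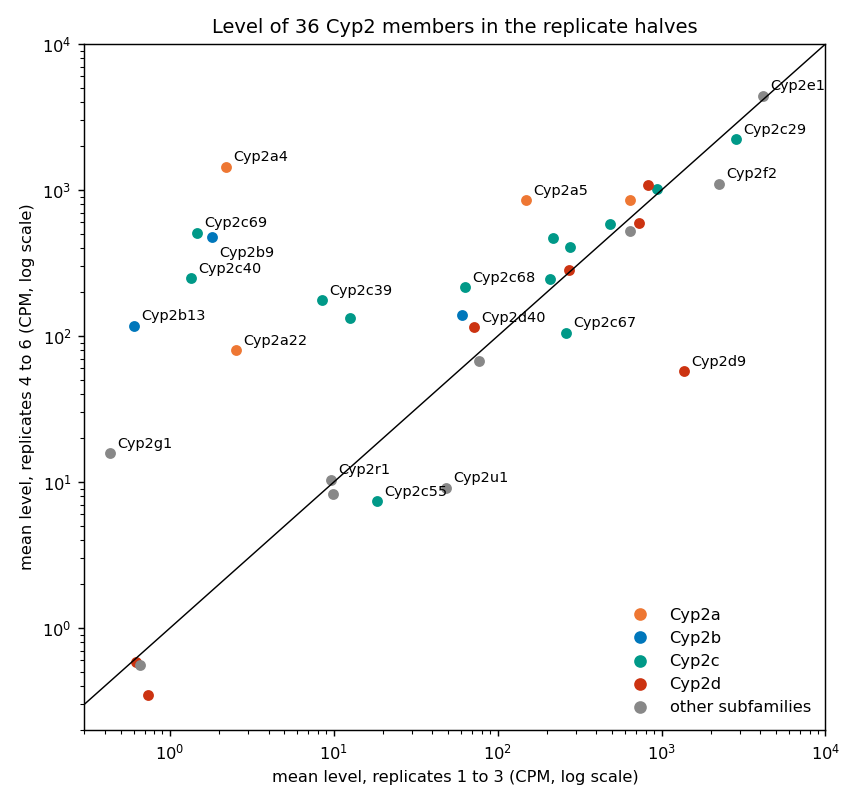
Mean level (CPM, logarithmic axes) of the 36 tested Cyp2 members over the 9 libraries of replicates 1 to 3 (horizontal) and the 9 of replicates 4 to 6 (vertical), with 1 point a gene coloured by subfamily and a line of equal level. Cyp2a4, Cyp2b9, Cyp2b13, Cyp2c40 and Cyp2c69 lie far above the line, Cyp2d9 lies far below it, and Cyp2e1 lies close to it.

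Among the genes lower in replicates 4 to 6, Cyp2d9, a testosterone hydroxylase known from male mouse liver, had the largest fall in each group. It stood at 1165, 1188 and 937 CPM in BDF1 replicates 1 to 3 and at 72.5, 42.1 and 142 CPM in replicates 4 to 6. In Space pups the values were 1564, 1535 and 1497 against 46.3, 43.1 and 36.2 CPM, and in Ground pups 1351, 1713 and 1378 against 45.2, 37.8 and 49.0 CPM. The sets were far apart in every group, and the ratio of replicates 1 to 3 over 4 to 6 was 12.8, 36.6 and 33.6 in BDF1, Space and Ground. Cyp2u1, a fatty acid hydroxylase, stood at 77.3, 52.6 and 41.9 CPM against 5.81, 12.5 and 19.4 CPM in BDF1 (log2 difference -2.19 ± 0.38, edgeR adjusted p = 0.001), with differences of -2.55 ± 0.40 in Space and -2.59 ± 0.39 in Ground. Cyp2f2 was lower in replicates 4 to 6, with log2 differences of -0.87 ± 0.27 in BDF1, -0.97 ± 0.27 in Space and -1.20 ± 0.27 in Ground. Its call in BDF1 was lost without any single BDF1 library (adjusted p up to 0.14) and its call in Space without Space replicate 4 (adjusted p = 0.064). Cyp2d12, at or below 2.19 CPM in every library, was higher in replicates 4 to 6 in Space (2.06 ± 0.65, edgeR adjusted p = 0.032) and lower in Ground (-2.63 ± 0.65, edgeR adjusted p = 0.0093). The Ground call was lost without Ground replicate 1 (adjusted p = 0.069) and the Space call without Space replicate 2, 3, 4, 5 or 6 (adjusted p up to 0.13).

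Along chromosome 19 the Cyp2c genes did not change together. From the low-coordinate end, Cyp2c55 and Cyp2c29 were followed by Cyp2c38 and Cyp2c39, a retinoic acid hydroxylase, both higher in replicates 4 to 6 in all 3 groups. Cyp2c39 ran from 9.04, 13.1 and 11.4 CPM to 239.5, 195 and 189 CPM in BDF1 (log2 difference 4.22 ± 0.33, edgeR adjusted p = 3.5e-07). Next stands Cyp2c67, which ran the other way, from 285, 408 and 288 CPM in Space replicates 1 to 3 to 86.7, 133 and 124 CPM in replicates 4 to 6 (-1.51 ± 0.24, edgeR adjusted p = 3.8e-04). The sets did not overlap in Space or in Ground, where the log2 difference was -1.77 ± 0.25 (edgeR adjusted p = 9.8e-05), while in BDF1 it was -0.55 ± 0.24 and did not pass (edgeR adjusted p = 0.14). Its neighbours Cyp2c68, Cyp2c40 and Cyp2c69, on the same strand and with the similar start regions printed above, were all higher in replicates 4 to 6. Cyp2c40, an arachidonic acid hydroxylase, stood at 0.234, 0 and 0.157 CPM against 161, 234 and 229.9 CPM in BDF1, and Cyp2c69 at 0.141, 0.220 and 0.157 CPM against 253, 493 and 436 CPM. In BDF1 replicates 1 to 3 these rest on 8 and 10 counts over the 3 libraries. Cyp2c55, at the edge of the cluster, was lower in replicates 4 to 6 of Space (-2.29 ± 0.52, edgeR adjusted p = 0.005) and Ground (-2.04 ± 0.56, edgeR adjusted p = 0.017), the latter not without Ground replicate 2, 5 or 6 (adjusted p up to 0.069). Beyond Cyp2c69, Cyp2c37, Cyp2c54, Cyp2c50 and Cyp2c70 had log2 differences of -0.28 to 1.35. Of these, Cyp2c37 was called higher in Space (1.35 ± 0.42, edgeR adjusted p = 0.028) and Cyp2c54 in BDF1 (0.79 ± 0.26, edgeR adjusted p = 0.047). The first call was lost without Space replicate 2, 3, 5 or 6 (adjusted p up to 0.12) and the second without each BDF1 library in turn (adjusted p up to 0.15).

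**Figure D2:**
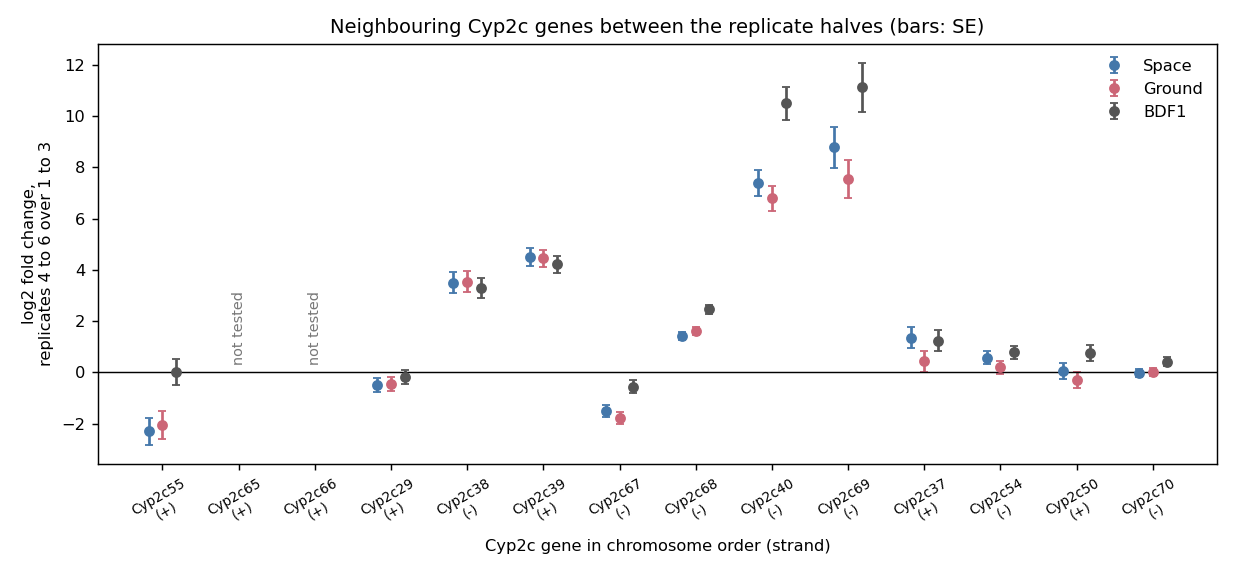
Log2 difference between replicates 4 to 6 and 1 to 3 for the 14 genes of the chromosome 19 Cyp2c cluster in chromosome order, with 1 point each for BDF1, Space and Ground. Bars are the approximate standard error derived from the test. Cyp2c65 and Cyp2c66 were not tested. Cyp2c67 lies below 0 beside Cyp2c68, Cyp2c40 and Cyp2c69, which lie above 0 in all 3 groups.

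The low end of these ranges was not even across libraries. In Ground replicate 2, Cyp2a4 stood at 0.513% of the mean level of Ground replicates 4 to 6, Cyp2b9 at 1.31%, Cyp2b13 at 3.54%, Cyp2c40 at 1.26% and Cyp2c69 at 1.10%. Xist stood at 1.16% in the same library. In Ground replicate 3, with 1 Xist count, Cyp2a4 stood at 0.0420%, Cyp2b9 at 0.0247%, Cyp2c40 at 0.421% and Cyp2c69 at 0.00966% of that mean, and Cyp2b13 had 0 counts. Cyp2c40 thus differed less between these libraries than the others, and it stood at 0.586% of the mean of Space replicates 4 to 6 in Space replicate 2, which had 0 Xist counts.

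The question behind the group comparison is whether the offspring of GS cells frozen in space differ in the liver from offspring of cells frozen on Earth and from BDF1 controls. Within replicates 1 to 3, Space pups exceeded BDF1 livers in 4 of 36 members and lay lower in 0, where 4.64% of all genes tested passed (2.85% higher and 1.8% lower). These were Cyp2c68, Cyp2j6, Cyp2c40 and Cyp2c67. In Ground pups 3 members were higher than in BDF1 and 0 lower, Cyp2j6, Cyp2c40 and Cyp2c70, where 1.92% of all genes passed (1.14% higher and 0.786% lower). Both comparisons use the same BDF1 libraries. The median log2 difference over the 36 members was 0.28 in Space and 0.25 in Ground, beside -0.0036 and 0.0086 over all genes tested. At an unadjusted p under 0.05, 14 members passed in Space (all genes: 19.4%) and 16 in Ground (all genes: 15.9%). Without the 2 libraries with sperm genes, Cyp2c68 was the only one of these calls left in Space and 0 were left in Ground. Of the hepatocyte, periportal, Kupffer cell and blood markers, 0 passed in either pup group. The 9 pericentral markers summed to 1836 to 2639 CPM in Space, 1731 to 2379 CPM in Ground and 1773 to 2202 CPM in BDF1, with 1 higher and 3 lower in Space (Rgn higher, Tbx3, Rnf43 and Axin2 lower) and 0 higher and 1 lower in Ground (Tbx3). The stellate cell marker Dcn was higher and the cholangiocyte marker Sox9 lower in Space, and the endothelial marker Stab2 was higher in Ground. The part of these markers in the Cyp2 differences was not tested.

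Cyp2c68 stood at 73.3, 94.0 and 75.6 CPM in Space, 51.0, 86.2 and 57.5 CPM in Ground and 39.0, 42.0 and 46.2 CPM in BDF1 replicates 1 to 3. Both pup groups lay above every BDF1 library. The log2 difference was 0.93 ± 0.16 (edgeR adjusted p = 0.0044) in Space, a fold of 1.91, and 0.61 ± 0.16 (edgeR adjusted p = 0.06) in Ground. The Space call held whichever library was left out (adjusted p up to 0.026). Its neighbour Cyp2c67 stood at 285, 408 and 288 CPM in Space, 242, 356 and 261 CPM in Ground and 186, 132 and 196 CPM in BDF1. Again the pups lay above BDF1, with log2 differences of 0.93 ± 0.24 (edgeR adjusted p = 0.036) in Space and 0.74 ± 0.24 (edgeR adjusted p = 0.13) in Ground. That Space call was lost without any single one of the 6 libraries compared (adjusted p up to 0.17).

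Cyp2j6 belongs to a subfamily of epoxygenases and stood at 88.0, 86.1 and 83.7 CPM in Space, 87.8, 111 and 72.3 CPM in Ground and 59.7, 52.9 and 46.2 CPM in BDF1. Neither pup group overlapped BDF1, with folds over BDF1 of 1.62 (log2 difference 0.70 ± 0.15, edgeR adjusted p = 0.012) and 1.71 (0.77 ± 0.15, edgeR adjusted p = 0.015). Without BDF1 replicate 2 or 3 both calls were lost, at adjusted p up to 0.066 and 0.08. Cyp2j5, the most abundant Cyp2j gene, stood at 686 ± 30.5 CPM in Space, 662 ± 25.9 CPM in Ground and 579 ± 24.0 CPM in BDF1 and did not pass (edgeR adjusted p = 0.20 and 0.38). Cyp2c70 stood at 1101, 1017 and 900.1 CPM in Space, 1324, 864 and 1192 CPM in Ground and 798, 630 and 589.6 CPM in BDF1. All pup values were above BDF1, with log2 differences of 0.58 ± 0.17 (edgeR adjusted p = 0.065) in Space and 0.74 ± 0.17 (edgeR adjusted p = 0.033) in Ground. The Ground call was lost without Space replicate 2, Ground replicate 1 or 3, or BDF1 replicate 2 or 3 (adjusted p up to 0.16). Scaling to total counts removed the calls of Cyp2j6 and, in Space and Ground respectively, Cyp2c67 and Cyp2c70.

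Among the members that passed, Cyp2c40 had the largest log2 difference and the lowest level. It stood at 2.35, 1.76 and 1.24 CPM in Space, 2.39, 2.95 and 0.990 CPM in Ground and 0.234, 0 and 0.157 CPM in BDF1. In counts these were 40, 28 and 23, 49, 56 and 19, and 5, 0 and 3. The log2 difference was 3.64 ± 0.80 (edgeR adjusted p = 0.016) in Space and 3.89 ± 0.77 (edgeR adjusted p = 0.018) in Ground. The 3 libraries with Xist counts among replicates 1 to 3 were among the higher ones, and without them the difference was 3.39 (adjusted p = 0.053) in Space and 2.81 (adjusted p = 0.34) in Ground, the latter on Ground replicate 3 alone, whose spread is taken to be that of the other groups. The Space call was also lost without Space replicate 1 or BDF1 replicate 2 or 3, and the Ground call without Ground replicate 1 or BDF1 replicate 2 or 3 (adjusted p up to 0.067 and 0.085). In replicates 4 to 6 the gene stood at 159 to 374 CPM in all groups. The other low members, Cyp2a4, Cyp2b9, Cyp2b13 and Cyp2c69, did not pass in either pup group. Their edgeR adjusted p was 0.27, 0.45, 0.61 and 0.17 in Space and 0.061, 0.083, 0.081 and 0.055 in Ground, where 2 of the 3 libraries are the Xist-bearing ones. Without the 3 libraries with Xist counts, the log2 difference in Space was 0.26 (adjusted p = 0.92) for Cyp2a4, -0.59 (adjusted p = 0.82) for Cyp2b9, -0.51 (adjusted p = 0.91) for Cyp2b13 and 1.85 (adjusted p = 0.16) for Cyp2c69. In Ground, on replicate 3 alone, it was 1.01 (adjusted p = 0.76) for Cyp2a4, -1.51 (adjusted p = 0.76) for Cyp2b9 and -1.58 (adjusted p = 0.76) for Cyp2c69, with Cyp2b13 at 0 counts.

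**Figure D3:**
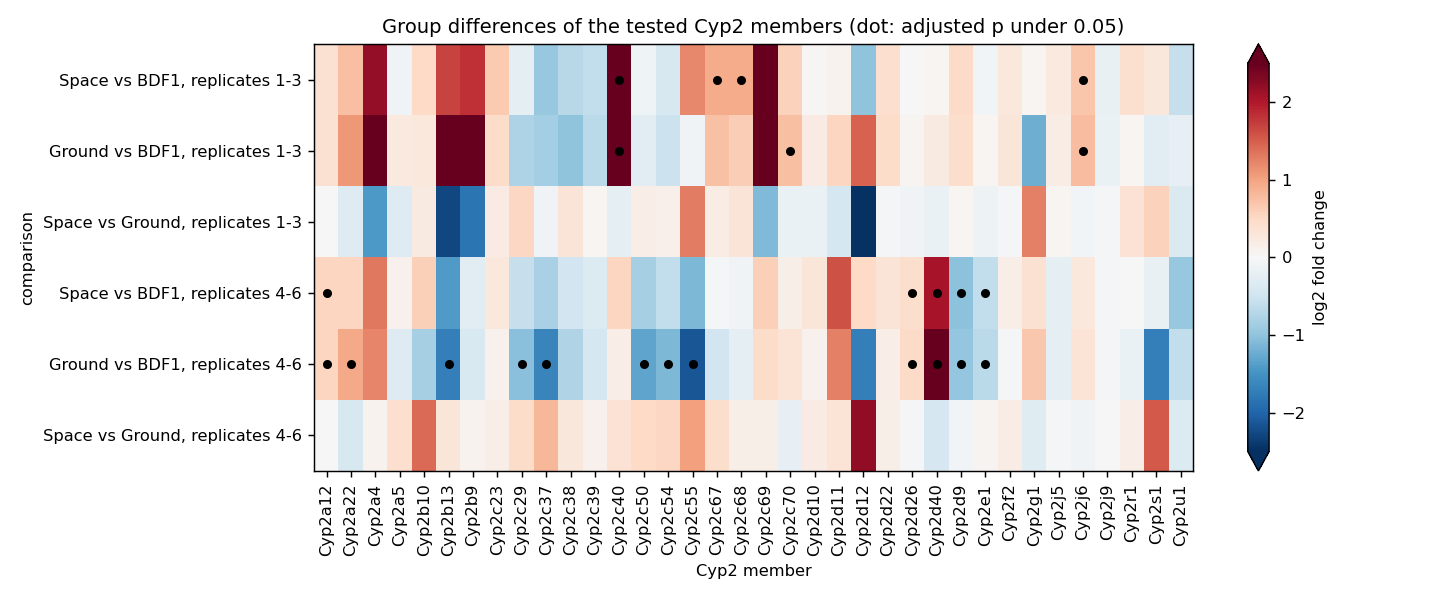
Log2 difference (colour) of each of the 36 tested Cyp2 members (columns) in 6 comparisons (rows), which are Space with BDF1, Ground with BDF1 and Space with Ground in each set of replicates. A black dot marks an edgeR adjusted p under 0.05. The dots within replicates 1 to 3 all stand on positive differences, and the 2 rows of Space with Ground hold none.

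Within replicates 4 to 6, 3 members were higher and 2 lower in Space pups than in BDF1, 5 of 36, where 11.9% of all genes tested passed (6.43% higher and 5.49% lower). Cyp2d40, Cyp2a12 and Cyp2d26 were higher, and Cyp2d9 and Cyp2e1 lower. In Ground pups 4 were higher and 8 lower, 12 of 36, where 15.2% of all genes passed (7.86% higher and 7.35% lower). Cyp2d40, Cyp2a12, Cyp2a22 and Cyp2d26 were higher, and Cyp2c29, Cyp2c37, Cyp2c50, Cyp2c54, Cyp2c55, Cyp2b13, Cyp2d9 and Cyp2e1 lower. The 5 called in Space were all called in Ground, in comparisons that share the BDF1 libraries. The median log2 difference over the 36 members was 0.05 in Space and -0.23 in Ground, beside 0.0094 and 0.0098 over all genes tested. Scaled to total counts, the split became 1 higher and 10 lower in Space and 1 higher and 19 lower in Ground (DESeq2: 4 and 4 in Space), while the median of all genes moved by -0.39 and -0.46 on the log2 scale. The pups of this set also had more albumin RNA, at 17.6% to 24.1% of counts, against 6.72% to 8.03% in BDF1 replicates 4 to 6. Albumin is among the 10 hepatocyte markers, so that their sum counts its RNA again. The summed level of the 10 hepatocyte markers was 255305 to 325303 CPM in Space, 248052 to 442210 CPM in Ground and 97937 to 121834 CPM in BDF1, with 2 higher and 0 lower in Space and 4 higher and 0 lower in Ground. The 6 blood and erythroid markers, mostly globin genes, summed to 202 to 722 CPM in Space, 103 to 592 CPM in Ground and 32.4 to 88.8 CPM in BDF1, with 4 higher and 0 lower in Space and 5 higher and 0 lower in Ground. The 10 periportal markers summed to 7793 to 9889 CPM, 5011 to 9269 CPM and 9876 to 13718 CPM in the same order, with 0 higher and 1 lower in Space and 0 higher and 5 lower in Ground. The 8 Kupffer cell markers summed to 168 to 225 CPM, 148 to 222 CPM and 83.3 to 175 CPM, with 2 higher and 0 lower in Space and 1 higher and 0 lower in Ground. No marker of these 4 lists was at 0 in every library. Of the 9 pericentral markers, Tbx3 was higher and Lect2 lower in both pup groups, with Oat also lower in Ground. The endothelial marker Bmp2 and the stellate cell marker Lrat were lower in Space, the endothelial marker Stab2 was higher and the cholangiocyte marker Sox9 lower in Ground, and Cela1, listed as a pancreas acinar marker, was lower in both. The part of these markers in the Cyp2 differences was not tested. Without the 3 libraries high in Serpina6, 4 members passed in Space, but the Space calls of Cyp2e1 and Cyp2d9 were lost. In Ground, replicate 4 then stands alone. Without the sperm-gene libraries, the Space calls of Cyp2d26, Cyp2e1 and Cyp2d9 were lost. With only the libraries compared in the fit, Cyp2d40 alone kept its call in Space, and Cyp2d40, Cyp2c54 and Cyp2b13 kept theirs in Ground.

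Cyp2d40 stood at 214, 89.1 and 96.1 CPM in Space, 96.3, 244 and 197 CPM in Ground and 37.1, 26.9 and 32.1 CPM in BDF1 replicates 4 to 6. Every pup lay above every BDF1 library, and the highest values were those of Space replicate 4 and Ground replicates 5 and 6. The fold over BDF1 was 4.15 in Space (log2 difference 2.05 ± 0.32, edgeR adjusted p = 0.0011) and 5.59 in Ground (2.48 ± 0.32, edgeR adjusted p = 2.6e-04), and both calls held whichever library was left out. Those 3 pups are the ones high in Serpina6, and without them the log2 difference was 1.53 (adjusted p = 3.2e-05) in Space and 1.59 (adjusted p = 1.7e-04) in Ground. Cyp2a12, a steroid hydroxylase, stood at 1016, 948 and 903 CPM in Space, 877, 894 and 1083 CPM in Ground and 621, 619 and 737 CPM in BDF1. Neither pup group overlapped BDF1, at folds of 1.45 (0.54 ± 0.11, edgeR adjusted p = 0.0073) and 1.44 (0.53 ± 0.11, edgeR adjusted p = 0.006), although scaling to total counts removed both calls, as did a fit with only the libraries compared.

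Cyp2d26 stood at 1068, 1262 and 1181 CPM in Space, 1116, 1176 and 1315 CPM in Ground and 903, 806 and 882 CPM in BDF1. It was higher than in BDF1 by log2 differences of 0.44 ± 0.12 (edgeR adjusted p = 0.032) in Space and 0.48 ± 0.12 (edgeR adjusted p = 0.017) in Ground, but scaled to total counts the Space difference was 0.05 (adjusted p = 0.81) and the Ground difference was -0.0046 (adjusted p = 0.98), with the sign turned in Ground. The Space call was also lost with no filter on low counts and without Space replicate 5 or 6 or BDF1 replicate 4, 5 or 6 (adjusted p up to 0.13), and the Ground call without Ground replicate 6 or BDF1 replicate 5 (adjusted p up to 0.07). Cyp2a22 stood at 144, 71.1 and 101 CPM in Ground, 79.1, 88.1 and 72.7 CPM in Space and 67.3, 57.9 and 39.7 CPM in BDF1. It passed in Ground (0.94 ± 0.23, edgeR adjusted p = 0.011) but not without BDF1 replicate 6 (adjusted p = 0.057) or scaled to total counts, and in Space the difference was 0.54 ± 0.23 (edgeR adjusted p = 0.13).

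Cyp2e1 stood at 3693, 4104 and 3638 CPM in Space, 3190, 3525 and 4230 CPM in Ground and 6576, 4965 and 5862 CPM in BDF1. All pups lay below all BDF1 livers, with log2 differences of -0.61 ± 0.19 (edgeR adjusted p = 0.047) in Space and -0.67 ± 0.19 (edgeR adjusted p = 0.025) in Ground. The Space call was lost without any of 12 of the 18 libraries, including each of the 6 compared (adjusted p up to 0.16), and the Ground call without Ground replicate 4 or 5 or BDF1 replicate 4 or 6 (adjusted p up to 0.10). Cyp2e1 is a pericentral gene, and the summed level of 9 other pericentral markers was 2772 to 3545 CPM in Space, 2519 to 3455 CPM in Ground and 3336 to 4229.6 CPM in BDF1. Of these 9, 1 was higher and 1 lower in Space, and 1 was higher and 2 lower in Ground. Their part in the Cyp2e1 result was not tested. Cyp2d9 stood at 46.3, 43.1 and 36.2 CPM in Space, 45.2, 37.8 and 49.0 CPM in Ground and 72.5, 42.1 and 142 CPM in BDF1. BDF1 replicate 5 overlapped the pups, and the log2 differences were -1.03 ± 0.29 (edgeR adjusted p = 0.031) in Space and -0.96 ± 0.29 (edgeR adjusted p = 0.034) in Ground. Without BDF1 replicate 6, or without any single one of the 3 pups compared, the call was lost (adjusted p up to 0.16 and 0.25).

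The 5 Cyp2c genes lower in Ground pups include 3 neighbours at the far end of the chromosome 19 cluster, all enzymes of arachidonic acid. Cyp2c37 stood at 404, 123 and 185 CPM in Ground, 186, 574 and 502 CPM in Space and 891, 626 and 708 CPM in BDF1. Cyp2c54 stood at 309, 204 and 286 CPM in Ground, 296, 467 and 378 CPM in Space and 650.1, 491 and 610.3 CPM in BDF1. Cyp2c50 stood at 556, 198 and 316 CPM in Ground, 306, 634 and 566 CPM in Space and 1029, 736 and 899.5 CPM in BDF1. For all 3 genes every pup of both groups lay below every BDF1 library. The 3 lowest pups for each gene were Space replicate 4 and Ground replicates 5 and 6. The log2 differences in Ground were -1.64 ± 0.42 (edgeR adjusted p = 0.015) for Cyp2c37, -1.13 ± 0.26 (edgeR adjusted p = 0.0082) for Cyp2c54 and -1.32 ± 0.32 (edgeR adjusted p = 0.012) for Cyp2c50. In Space they were -0.82 ± 0.41, -0.62 ± 0.25 and -0.82 ± 0.32, with edgeR adjusted p of 0.20, 0.12 and 0.10. Cyp2c37 was lost without Ground replicate 5 or 6 or BDF1 replicate 4 (adjusted p up to 0.064), while Cyp2c54 and Cyp2c50 held with any 1 library left out. Without the 3 libraries high in Serpina6 the Ground differences were -0.87 (adjusted p = 0.15) for Cyp2c37, -0.91 (adjusted p = 0.13) for Cyp2c54 and -0.67 (adjusted p = 0.15) for Cyp2c50.

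Cyp2c29 stood at 2243, 986 and 1296 CPM in Ground, 1617, 1838 and 2778 CPM in Space and 3953, 2541 and 2797 CPM in BDF1. Space replicate 6 overlapped BDF1, and the Ground livers lay below it (log2 difference -1.04 ± 0.27, edgeR adjusted p = 0.016). Cyp2c55 stood at 6.36, 0.526 and 1.86 CPM in Ground, 3.12, 7.10 and 7.75 CPM in Space and 17.0, 6.81 and 15.7 CPM in BDF1, a log2 difference of -2.14 ± 0.55 (edgeR adjusted p = 0.017) in Ground. Both calls were lost without Ground replicate 5 or 6 or BDF1 replicate 4, and that of Cyp2c55 also without BDF1 replicate 6 (adjusted p up to 0.078 and 0.068). Without the 3 libraries high in Serpina6 they were -0.46 (adjusted p = 0.33) and -1.04 (adjusted p = 0.23). Cyp2b13 stood at 68.3, 65.2 and 58.6 CPM in Ground, 51.6, 113 and 72.4 CPM in Space and 233, 170.3 and 226 CPM in BDF1. Every pup lay below every BDF1 library, with log2 differences of -1.71 ± 0.45 (edgeR adjusted p = 0.018) in Ground and -1.41 ± 0.45 (edgeR adjusted p = 0.051) in Space. The Ground call was lost without Ground replicate 6 or BDF1 replicate 4 (adjusted p up to 0.061) and in DESeq2. Its near copy Cyp2b9 stood at 421 ± 120.3 CPM in Ground, 449.8 ± 139 CPM in Space and 550.5 ± 38.0 CPM in BDF1, with no call (edgeR adjusted p = 0.72 and 0.80). Cyp2a4 had a wide gap and no call. It stood at 2015, 1678 and 1859 CPM in Space and 1985, 1446 and 1779 CPM in Ground, all above the BDF1 values of 428, 1008 and 789 CPM, and the log2 differences were 1.32 ± 0.62 (edgeR adjusted p = 0.17) and 1.23 ± 0.62 (edgeR adjusted p = 0.20).

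**Figure D4:**
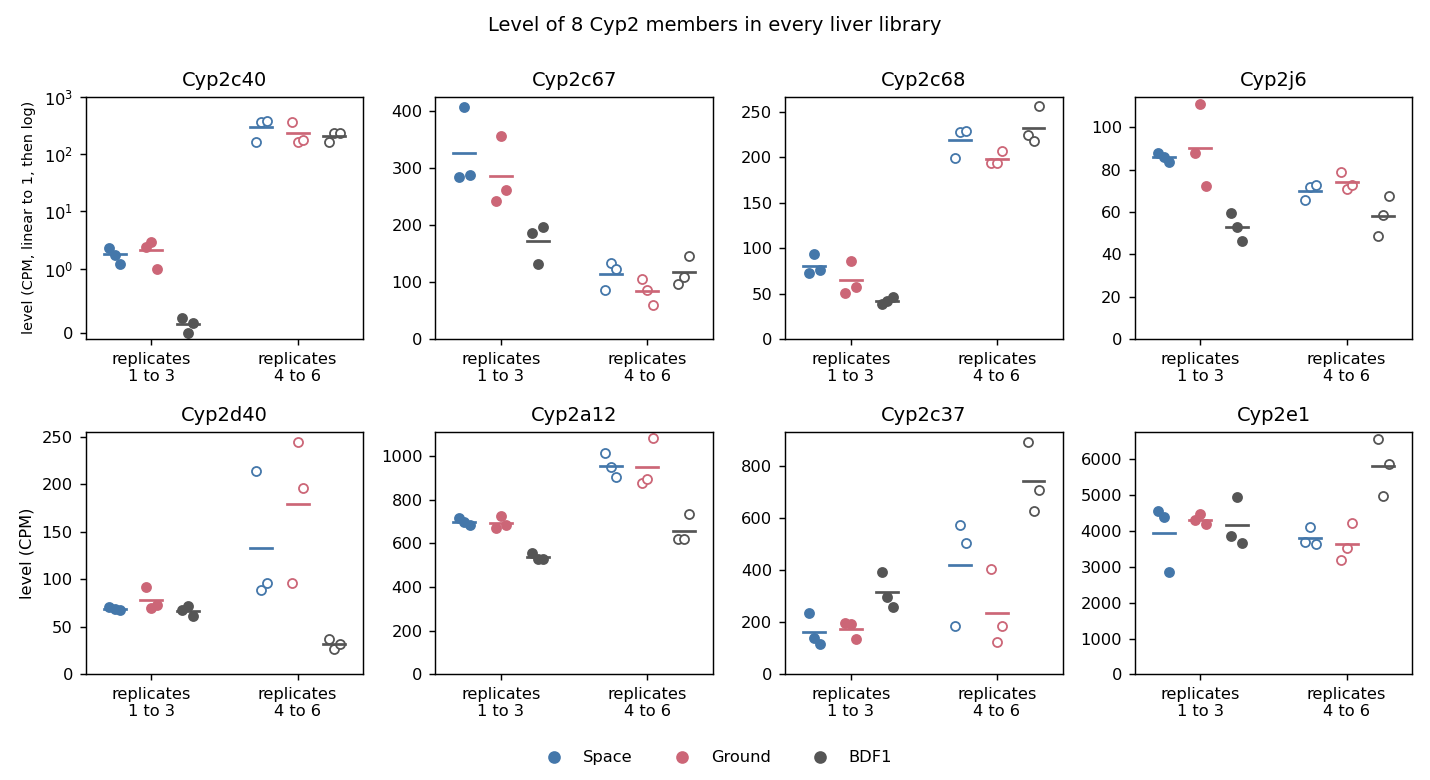
Level (CPM) of 8 Cyp2 members in each of the 18 libraries by group, with 1 point a library, filled for replicates 1 to 3 and open for replicates 4 to 6, and the mean as a line. Axes are linear from 0, except that of Cyp2c40, which is linear to 1 CPM and logarithmic above. Cyp2d40 stands at 89.1 to 244 CPM in the pups of replicates 4 to 6 and at 26.9 to 37.1 CPM in the BDF1 livers of that set.

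Space and Ground pups, which differ in where the GS cells were frozen, were compared directly in each set. Within replicates 1 to 3, 0 of 36 members passed, where 0.00749% of all genes tested passed (edgeR). At an unadjusted p under 0.05, 4 members did, against 9.67% of all genes, and DESeq2 called 0. Within replicates 4 to 6, 0 of 36 passed, where 0.0225% of all genes did, with 2 members at an unadjusted p under 0.05 (all genes: 13.9%) and 0 in DESeq2. Over the 31 members whose mean reached 10 CPM, the log2 difference of Space from Ground ran from -2.28 ± 0.91 (Cyp2b13) to 1.27 ± 0.49 (Cyp2c55) in replicates 1 to 3, and 26 lay within 1 log2 unit. In replicates 4 to 6 it ran from -0.43 ± 0.31 (Cyp2d40) to 1.43 ± 0.50 (Cyp2b10), and 29 lay within 1 log2 unit. Standard errors were 0.104 to 0.914 and 0.104 to 0.624. For members with errors at the upper end, a difference of a log2 unit was not detectable with 3 livers a group. The abundant Cyp2e1 differed by -0.13 ± 0.19 and 0.06 ± 0.19, Cyp2f2 by -0.04 ± 0.27 and 0.19 ± 0.27, and Cyp2c29 by 0.52 ± 0.27 and 0.46 ± 0.27 in replicates 1 to 3 and 4 to 6.

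A direct test asked whether a group's difference from BDF1 was unlike in the 2 sets of replicates. For Space, 1 member was called in the positive and 1 in the negative direction, where 3.19% of all genes passed (1.77% positive and 1.42% negative). Cyp2d40 differed from BDF1 by 0.05 ± 0.31 in replicates 1 to 3 and 2.05 ± 0.32 in replicates 4 to 6, a gap of 2.00 ± 0.44 (edgeR adjusted p = 0.019). Cyp2c68 had a gap of -1.02 ± 0.23 (edgeR adjusted p = 0.02) between 0.93 ± 0.16 in replicates 1 to 3 and -0.09 ± 0.16 in replicates 4 to 6. The first call was lost without Space replicate 3 or BDF1 replicate 5 and the second without Space replicate 2 or BDF1 replicate 2 or 6 (adjusted p up to 0.06 and 0.059). Cyp2d40 was also lost without the Xist-bearing libraries, at 2.02 (adjusted p = 0.063), and Cyp2c68 without the 2 libraries with sperm genes, at -1.12 (adjusted p = 0.054). Scaled to total counts, the split was 1 positive and 2 negative for Space and 1 positive and 11 negative for Ground, and in DESeq2 it was 1 positive and 4 negative and 1 positive and 7 negative. For Ground, 1 member was called in the positive and 2 in the negative direction, where 2.74% of all genes passed (1.34% positive and 1.4% negative). Cyp2d40 had a gap of 2.26 ± 0.44 (edgeR adjusted p = 0.013), which held whichever single library was left out but not without the 3 libraries with Xist counts among replicates 1 to 3, where it was 2.35 (adjusted p = 0.14) with Ground replicate 3 alone in its set. In BDF1 alone its level was lower in replicates 4 to 6 (log2 difference -1.06 ± 0.31, edgeR adjusted p = 0.03), a call lost without BDF1 replicate 1, 2, 3, 5 or 6 (adjusted p up to 0.12), while in Space it was higher by 0.94 ± 0.31 and in Ground by 1.20 ± 0.31. Cyp2b13 had a gap of -5.69 ± 1.17 (edgeR adjusted p = 0.017) and Cyp2c40 of -3.72 ± 0.87 (edgeR adjusted p = 0.032). Without the 3 libraries with Xist counts among replicates 1 to 3, these became 2.01 (adjusted p = 0.84) and -2.63 (adjusted p = 0.38). That fit leaves Ground replicate 3 alone in its set, with 0 counts of Cyp2b13 against 5 over the 3 BDF1 libraries, so that the sign of the Cyp2b13 value carries no direction. Both calls were also lost without the sperm-gene libraries, at -5.15 (adjusted p = 0.073) and -3.83 (adjusted p = 0.10). Cyp2b13 was also lost without Ground replicate 1 or BDF1 replicate 3 (adjusted p up to 0.06), and Cyp2c40 without any of 9 libraries, Ground replicates 1, 2, 5 and 6 and BDF1 replicates 1, 2, 3, 5 and 6 (adjusted p up to 0.093). The gap between Space and Ground differed between the sets for 0 members in edgeR (all genes: 0.0%), with 3 at an unadjusted p under 0.05 and 1 in DESeq2.

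Summed by subfamily, the levels of Cyp2a, Cyp2b and Cyp2d did not overlap between the sets in any group. Cyp2a genes summed to 682 ± 63.1 CPM in BDF1 replicates 1 to 3 and 2346 ± 386 CPM in replicates 4 to 6, with 3843 ± 348 CPM in Space and 3508 ± 385 CPM in Ground replicates 4 to 6. Cyp2b genes summed to 50.7 ± 15 CPM and 895 ± 92.8 CPM in BDF1, and Cyp2d genes to 2891 ± 267 CPM and 1769 ± 166 CPM. The Cyp2c sum adds members that ran in opposite directions, and stood at 5768 ± 322 CPM and 7781 ± 965 CPM in BDF1, 5562 ± 829 CPM and 6167 ± 912 CPM in Space, and 4618 ± 335 CPM and 5069 ± 1308 CPM in Ground. Over all members the sum was 20349.5 ± 1581 CPM in BDF1, 18678 ± 1395 CPM in Space and 16747 ± 1971 CPM in Ground replicates 4 to 6. As a share of counts the family took 2.28% ± 0.159, 1.60% ± 0.263 and 1.37% ± 0.379 in these. Sums are over transcripts of unlike length and were not tested. Of the 36 members tested, 13 are Cyp2c genes. In replicates 1 to 3, 3 of the 13 were higher in Space (all genes: 2.85%) and 2 in Ground (all genes: 1.14%), and in replicates 4 to 6, 0 of the 13 passed in Space (all genes: 11.9%) and 5 were lower in Ground (all genes: 7.35%).

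**Figure D5:**
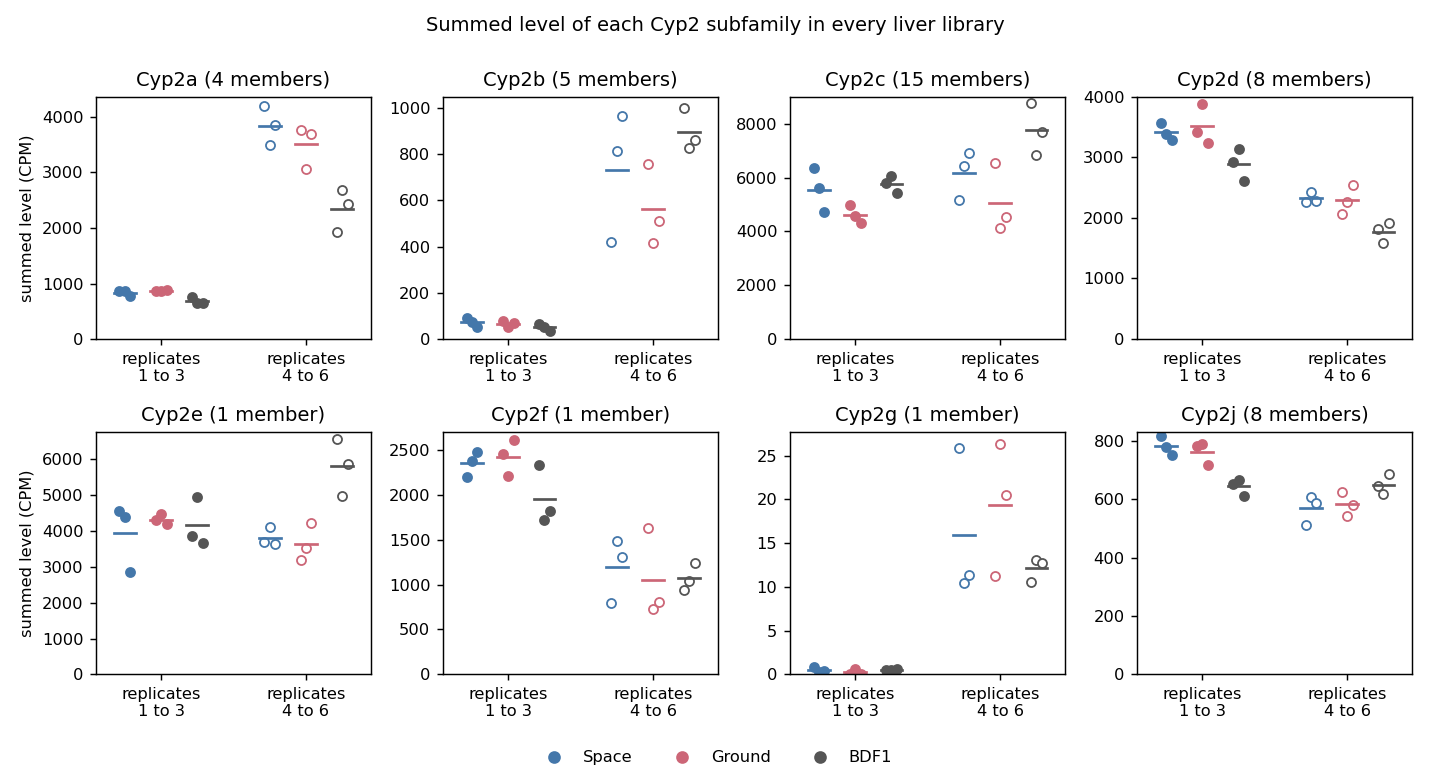
Summed level (CPM, linear axis from 0) of 8 Cyp2 subfamilies by group, with 1 point a library, filled for replicates 1 to 3 and open for replicates 4 to 6, and the mean as a line. The Cyp2a and Cyp2b sums are higher in replicates 4 to 6 of all groups, and the Cyp2d sum is lower.

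P450 activity needs electrons and heme, and a list of 13 such genes was counted in each comparison. In replicates 1 to 3, 0 of 13 passed in edgeR between either pup group and BDF1 (all genes: 4.64% in Space and 1.92% in Ground). Alas1, the first enzyme of heme synthesis, did not pass there. It stood at 356, 288 and 322 CPM in Space and 253, 144 and 295 CPM in Ground. In BDF1 it stood at 55.0, 42.8 and 78.4 CPM, below every pup of that set. In replicates 4 to 6, 1 passed in Space and 2 in Ground, where 11.9% and 15.2% of all genes passed. Cyb5r3, the reductase of cytochrome b5, was higher in Space (0.79 ± 0.22, edgeR adjusted p = 0.026) and in Ground (0.74 ± 0.22, edgeR adjusted p = 0.029), and Por was lower in Ground (-0.46 ± 0.15, edgeR adjusted p = 0.048). Por was higher in replicates 4 to 6 than in 1 to 3 in all 3 groups, by 1.36 ± 0.15 in BDF1, 1.29 ± 0.15 in Space and 1.33 ± 0.15 in Ground. The heme breakdown enzyme Blvrb was lower in all 3. In all, 3 of 13 passed between the sets in BDF1, with Cpox of heme synthesis lower (-0.44 ± 0.12, edgeR adjusted p = 0.018), and 4 in Space, with heme oxygenase Hmox1 higher (1.22 ± 0.39, edgeR adjusted p = 0.035) and Alas1 lower (-2.30 ± 0.69, edgeR adjusted p = 0.025). In Ground 3 passed, with Cyb5r3 higher (0.66 ± 0.22, edgeR adjusted p = 0.042). All genes passed at 14.6%, 21.9% and 18.3%. Alas1 also had differences between Space and BDF1 that were unlike in the 2 sets (log2 gap -3.65 ± 0.96, edgeR adjusted p = 0.048). In replicates 4 to 6 it stood at 125, 30.3 and 41.2 CPM in Space and 92.9, 161 and 196 CPM in BDF1. In Ground it stood at 29.9, 120 and 441.5 CPM. The median log2 difference of the list from BDF1 was -0.066 in Space and -0.18 in Ground replicates 4 to 6, beside 0.0094 and 0.0098 over all genes.

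Of 24 regulators of Cyp2 transcription, all tested, 3 were higher and 1 lower in Space than in BDF1 in replicates 1 to 3 (all genes: 4.64% passed). The clock-linked factors Tef (1.21 ± 0.17, edgeR adjusted p = 8.1e-04) and Dbp (2.10 ± 0.42, edgeR adjusted p = 0.011) were higher, with PXR (Nr1i2, 0.78 ± 0.14, edgeR adjusted p = 0.0069), and Stat5a (-0.95 ± 0.15, edgeR adjusted p = 0.0024) was lower. In Ground, Tef was higher (0.75 ± 0.17, edgeR adjusted p = 0.03) and 0 were lower (all genes: 1.92%). In replicates 4 to 6, Foxa3, Nr1i2 and Nr1i3 were higher and Ctnnb1 lower in Space, and Foxa3, Nr1i3, Ghr and Hlf were higher and Nr0b2 and Dbp lower in Ground (all genes: 11.9% and 15.2%). Ghr, the growth hormone receptor, stood at 446, 4094 and 2323 CPM in Ground, 3556, 442 and 435 CPM in Space and 428, 424 and 458 CPM in BDF1, so that only the libraries high in Serpina6 lay above the BDF1 range. The list's median log2 difference from BDF1 was 0.035 in Space and 0.12 in Ground in that set, beside the medians over all genes given above. CAR (Nr1i3) was higher by 1.04 ± 0.29 (edgeR adjusted p = 0.028) in Space and 1.22 ± 0.29 (edgeR adjusted p = 0.0099) in Ground, and Foxa3 by 1.64 ± 0.22 (edgeR adjusted p = 5.6e-04) and 1.75 ± 0.22 (edgeR adjusted p = 2.4e-04). The CAR target Cyp2b10 stood at 77.6, 165 and 370.4 CPM in Space, 142, 40.4 and 45.8 CPM in Ground and 177, 109 and 119 CPM in BDF1, with edgeR adjusted p of 0.44 and 0.28. The nuclear receptor Nr0b2 was lower in Ground than in BDF1 (-2.55 ± 0.29, edgeR adjusted p = 8.1e-05) and higher in Space than in Ground (1.87 ± 0.28, edgeR adjusted p = 0.028), the only list gene called between the pup groups. Between the sets of replicates, 4 regulators were higher and 2 lower in replicates 4 to 6 of BDF1, 9 and 2 in Space, and 9 and 3 in Ground, where 14.6%, 21.9% and 18.3% of all genes passed. Cux2, Dbp, Tef and Cebpa were higher in replicates 4 to 6 in all 3 groups. Dbp, a clock-controlled factor, was higher by 7.49 ± 0.42 in BDF1, 4.65 ± 0.35 in Space and 4.90 ± 0.36 in Ground, and Tef by 2.75 ± 0.18 in BDF1, 1.07 ± 0.17 in Space and 1.61 ± 0.17 in Ground. Cebpa, a hepatocyte factor, was higher by 0.63 ± 0.16 in BDF1, 0.79 ± 0.16 in Space and 0.70 ± 0.16 in Ground. Cux2, a factor of female mouse liver, was higher by 5.68 ± 1.12 in BDF1, 7.65 ± 1.25 in Space and 8.23 ± 1.21 in Ground. In replicates 4 to 6 it stood at 110.2, 16.0 and 8.04 CPM in Space, 14.5, 95.2 and 111 CPM in Ground and 16.0, 34.1 and 16.7 CPM in BDF1, with the highest values in the 3 libraries high in Serpina6. The part of these genes in the Cyp2 differences was not tested.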

How the data were processed

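Per the submitters' processing notes, which give no roles, the tools were bcl2fastq 2.20, cutadapt 4.6, HISAT2 2.2.1 and HTSeq 2.0.2, on mm10. Libraries were made with a stranded poly(A) RNA kit, and the study's methods describe single reads. The deposited table holds raw gene counts for all 18 libraries, with no normalization by the authors. Strand setting and the handling of reads shared by paralogs are not given in the sources used here. Here, all genes kept by edgeR's filter (13356 of 32285) were fitted at once in edgeR 4.0.16 (R 4.3.3) with TMM scaling, a quasi-likelihood fit, 1 mean for each group and set of replicates (6 of 3 libraries), and Benjamini-Hochberg adjustment over all genes for each of 12 contrasts, two-sided at 0.05. The Cyp2 members and the lists were chosen with earlier results of these data known. Members chosen to be named were the called ones (up to 10 a comparison by adjusted p, 6 for the tests between sets), the most abundant of each subfamily, and the 6 largest rises and falls between sets. Not all of them are given library by library, and Cyp2r1 is left out. Cyp2a5, Cyp2b10 and Cyp2c39 are given outside this rule. The calls between sets of Cyp2c37 and, in Space, Cyp2d12 and that of Cyp2c54 in BDF1 were added after their values were seen. Alternatives were DESeq2 1.42.0, its size factors in edgeR, total counts, no filter, the 10 most abundant genes left out, only the libraries compared, a replicate block and each library left out. Leaving out 3 sets of libraries that stand apart was added after seeing the data. On simulated counts for 13210 genes, 76% of 100 genes changed 2-fold and 95% of 100 changed 4-fold were called, with 8 unchanged genes also called. Each simulated gene had the same baseline level in all sets, and the lowest genes were not changed. Members near 0 in a set are therefore outside this setting. No libraries were duplicates. Some genes of the regulator and marker lists are not reported here.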

Additional observations from a re-analysis of the deposited data

Results flagged for a closer look

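Within each group of 6 livers, 81 sets of values were tested for 1 library lying apart from the others (gap to the nearest value over the whole range, against Dixon's 95% value for 6), and 4 passed, where chance gives about 1 in 20. Cyp2d40 in Space replicate 4 stood at 214 CPM, the next at 96.1 CPM (gap over range 0.806). Cyp2c37 in Ground replicate 4 stood at 404 CPM, the next at 196 CPM (0.739). Cyp2s1 in Ground replicate 2 stood at 1.21 CPM, the next at 0.467 CPM (0.652), and Cyp2d12 in Ground replicate 1 at 2.19 CPM, the next at 0.782 CPM (0.664). Each group of 6 holds both sets of replicates, so that the gaps of members that differ between the sets, Cyp2d40 in Space and Cyp2d12 in Ground among them, do not show that a library stands apart from its own set.

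Differences from BDF1 that were unlike in the 2 sets of replicates by the direct edgeR test were those of Cyp2d40 in Space (log2 gap 2.00 ± 0.44, edgeR adjusted p = 0.019) and in Ground (2.26 ± 0.44, edgeR adjusted p = 0.013), Cyp2c68 in Space (-1.02 ± 0.23, edgeR adjusted p = 0.02), and Cyp2c40 (-3.72 ± 0.87, edgeR adjusted p = 0.032) and Cyp2b13 (-5.69 ± 1.17, edgeR adjusted p = 0.017) in Ground. Cyp2d40 was higher in all 6 pups of replicates 4 to 6 than in the BDF1 livers of that set. What these share with the libraries that stand apart is given by value above and was not tested further.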

How the results depend on the processing

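The number of members called moved with the processing, and total counts also turned the balance of higher and lower calls. Space against BDF1 in replicates 1 to 3 (4 members) gave 8 in DESeq2, 8 with only the libraries compared, 2 with total counts, 8 without the 3 libraries high in Serpina6, 2 without those with Xist counts, 1 without the 2 with sperm genes and 1 to 6 with 1 library left out. Ground against BDF1 in that set (3) gave 12, 6, 1, 8, 0 and 0 in the same order, 7 with no filter and 0 to 6 with 1 left out. Space against BDF1 in replicates 4 to 6 (5) gave 8 in DESeq2, 3 with only the libraries compared, 11 with total counts, 2 without the sperm-gene libraries and 2 to 7 with 1 left out. Ground against BDF1 there (12) gave 4 with only the libraries compared, 20 with total counts, 2 without the Serpina6 libraries and 6 to 14 with 1 left out. Between the sets, BDF1 (16) gave 13 to 19, Space (23) 19 to 23 and Ground (22) 18 to 22 with 1 left out, and Ground gave 14 with only the libraries compared and 14 without the Xist libraries. Space against Ground stayed at 0 to 0 in replicates 1 to 3 and 0 to 0 in replicates 4 to 6 with 1 left out. The test between sets gave, for Space (2), 5 in DESeq2, 5 with no filter, 4 with only the libraries compared, 4, 1 and 1 without the Serpina6, Xist and sperm-gene libraries, and 1 to 5 with 1 left out. For Ground (3) it gave 8 in DESeq2, 12 with total counts, 7 with no filter, 0 and 1 without the Xist and sperm-gene libraries, and 1 to 6 with 1 left out. For Space against Ground (0) DESeq2 gave 1. Among the calls of single members, the sign turned for Cyp2d26 in Ground replicates 4 to 6 with total counts (-0.0046) and for the Cyp2b13 gap in Ground without the Xist libraries (2.01), where 1 Ground library with 0 counts remained. The cause of the Cyp2d26 turn was not tested. Some differences from BDF1 in replicates 1 to 3 that had no call also turned negative without the Xist libraries. These were Cyp2b9 in both pup groups, Cyp2b13 in Space and Cyp2c69 in Ground, with values given above. Total counts moved the median of all genes by -0.46 in Ground and -0.39 in Space against BDF1 in replicates 4 to 6, by -0.13 in Space in replicates 1 to 3, and by -0.43 and -0.29 between the sets in Ground and Space. Members at under 30 counts in a set of 3 libraries are limited by depth.

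Replicate numbers are shared by the groups in the labels, but within the sets same-numbered libraries did not deviate together (18 pairs, median r = -0.04, 3 pairs over 0.1), and 5 of 18 libraries correlated best with their own number. With the number as a replicate block, 3 and 3 members passed in Space and Ground against BDF1 in replicates 1 to 3, 3 and 12 in replicates 4 to 6, with Cyp2c67, Cyp2d26, Cyp2e1 and Cyp2d9 lost in Space and Cyp2c70 and Cyp2d9 in Ground, and 1 and 2 in the tests between sets, where the Cyp2d40 gap was lost in Space (adjusted p = 0.072) and in Ground (adjusted p = 0.051) and the Cyp2c40 gap in Ground (adjusted p = 0.073).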
